A study of Mus musculus with 6 samples.

Results

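A set of 10 genes of the Notch pathway and of the secretory lineage was followed across the cell classes of the mouse jejunal epithelium. They were chosen by their symbols in the gene lists deposited with the counts (Atoh1, Hes1, Dll1, Dll4, Notch1, Spdef, Gfi1, Neurog3, Sox9 and Sox4), which makes 10 of 32285 genes. Single jejunal epithelial cells had been sequenced in 6 libraries: each of 3 conditions gave 1 labelled as crypts and 1 labelled as villi. All animals were Wildtype C57BL/6J male mice of about 30 weeks, which ate their diet for 16 weeks before surgery and were taken 5 weeks after it. LFD sham mice ate a diet with 10% of its calories as fat and had a sham operation, HFD sham mice ate a diet with 60% of its calories as fat and had a sham operation, and HFD VSG mice ate the 60% diet and had a vertical sleeve gastrectomy (VSG, a surgical removal of most of the stomach). Each library pooled the cells of 3 LFD sham, 3 HFD sham or 2 HFD VSG mice, and pooling hides the spread between animals.

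Notch signalling sorts intestinal progenitors between absorptive and secretory fates by contact between neighbours. Cells that carry the ligands Dll1 and Dll4 activate Notch1 on adjacent cells, where Hes1 is switched on and represses Atoh1, the factor without which no secretory cell forms. Downstream of Atoh1, Spdef and Gfi1 act in goblet and Paneth cells and Neurog3 starts the enteroendocrine (EEC) programme. Sox9 marks stem, Paneth and tuft cells, and Sox4 has been tied to tuft and enteroendocrine differentiation.

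After filtering, 23786 cells remained, 2968 to 4690 per library, with medians of 8377.5 to 30232 unique molecular identifiers (UMIs, each a count of 1 captured RNA molecule) per cell. Pairs of libraries shared 1 to 11 cell barcodes, at most 0.295% of the cells of the smaller library of a pair. Cells were grouped without using the 10 genes and named by markers. A class name ending in -like rests on those markers, and 3 clusters are called by a leading gene instead. The Ccnb2-led cluster held 8 of 9 cycling progenitor markers. Its leading genes, with Cdkn3, Ccnb2, Nek2 and Cdc20 among them, included the early progenitor marker Dmbt1 but no marker of the cycling list. It was therefore not given the cycling name. The Ms4a18-led cluster held 7 of 10 early progenitor markers but its leading genes went against that name, and the Ada-led cluster met no marker list. A further 3 clusters of 2181, 1958 and 167 cells stayed unnamed and are not described as classes. The layer labels went against the markers: stem-like cells made up 1.08%, 1.55% and 2.71% of the crypt-labelled cells of LFD sham, HFD sham and HFD VSG, but 5.59%, 2.63% and 9.36% of the villus-labelled ones. Paneth-like cells likewise made up 0.832% to 1.53% of the crypt-labelled and 2.12% to 6.02% of the villus-labelled cells. Libraries are therefore named by their labels, and nothing is read from a label about position in the tissue. The 9 stem markers took 4864 to 6360 of every 1000000 UMIs in stem-like cells against 1378 to 1939 in cycling progenitor-like cells, and the 6 stromal markers had no UMI in either class. The immune-like class held 6 cells in the HFD sham villi library and the tuft-like class 13 cells in the HFD sham crypts library, and both were left out of means for having fewer than 20 cells.

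The stretches of 250 bases upstream of the annotated starts of 5 of the genes are shown for the factors that mark goblet-like and enteroendocrine cells (Atoh1, Spdef and Neurog3), the most abundant ligand (Dll1) and the gene with the most ratios past 0.5 for diet in villi (Sox4). All were read 5′ to 3′ on the gene's strand from RefSeq sequence of build GRCm38.p6, which held such a stretch for 8 of the 10 genes (not for Hes1 and Sox9). The Atoh1 stretch lies at chr6:64728875-64729124 on the plus strand, the Spdef stretch at chr17:27728952-27729201 and the Dll1 stretch, before the more upstream of its 2 starts, at chr17:15376933-15377182, both on the minus strand. The Neurog3 stretch lies at chr10:62132840-62133089 on the plus strand and the Sox4 stretch at chr13:28953700-28953949 on the minus strand. Capitals mark matches to an E-box bound by Atoh1 (CAGCTG), to the core of the site of RBPJ, the DNA-binding partner of Notch (TGGGAA), and to an N-box bound by Hes factors (CACNAG).
Atoh1: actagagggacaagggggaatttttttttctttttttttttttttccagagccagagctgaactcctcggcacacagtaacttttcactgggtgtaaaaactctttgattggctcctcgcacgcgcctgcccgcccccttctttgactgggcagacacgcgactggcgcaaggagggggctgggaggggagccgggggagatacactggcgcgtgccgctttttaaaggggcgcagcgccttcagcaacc
Spdef: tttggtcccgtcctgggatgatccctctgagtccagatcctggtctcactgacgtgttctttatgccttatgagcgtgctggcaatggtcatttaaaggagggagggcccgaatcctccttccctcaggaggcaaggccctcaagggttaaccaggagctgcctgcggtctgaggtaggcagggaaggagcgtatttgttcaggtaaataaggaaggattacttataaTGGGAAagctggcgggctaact
Dll1: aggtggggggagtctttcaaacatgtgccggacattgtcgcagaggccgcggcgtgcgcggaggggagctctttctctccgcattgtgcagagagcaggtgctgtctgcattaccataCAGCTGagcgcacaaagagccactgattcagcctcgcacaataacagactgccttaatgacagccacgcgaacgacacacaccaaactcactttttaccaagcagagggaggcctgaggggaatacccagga
Neurog3: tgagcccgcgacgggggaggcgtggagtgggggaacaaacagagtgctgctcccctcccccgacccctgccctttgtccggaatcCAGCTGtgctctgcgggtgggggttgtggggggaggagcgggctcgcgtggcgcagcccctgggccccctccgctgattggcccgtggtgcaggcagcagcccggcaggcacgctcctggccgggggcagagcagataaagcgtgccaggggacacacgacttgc
Sox4: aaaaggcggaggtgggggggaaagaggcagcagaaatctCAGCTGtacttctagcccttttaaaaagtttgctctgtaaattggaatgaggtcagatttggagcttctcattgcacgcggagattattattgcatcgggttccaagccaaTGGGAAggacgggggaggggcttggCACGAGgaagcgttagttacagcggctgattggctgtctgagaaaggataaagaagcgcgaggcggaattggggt

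The letters were searched on both strands in the 10 stretches of the 8 genes, since Dll1 and Gfi1 have a pair each. CAGCTG was present in 1 stretch each of Dll1, Neurog3 and Sox4, 3 of 10, and in 13% of the 32851 stretches of the same length in the annotation. TGGGAA was present in those of Spdef and Sox4, 2 of 10 against 21.6% of all stretches. CACNAG was present in those of Sox4, Notch1 and Dll4, 3 of 10 against 36.7% of all stretches. The Atoh1 stretch held none of the 3 motifs, which says only that these letters are not in this window.

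Of the 10 genes, Hes1 gave the most UMIs (18721, in 7272 cells) and Neurog3 the fewest (532, in 77 cells). Sox4 gave 13440 UMIs, Sox9 12918, Dll1 8133, Atoh1 4166, Spdef 3825, Notch1 3076, Dll4 1481 and Gfi1 618. Levels are given as CPM, the counts per 1000000 UMIs of the class in that library, a scale which for 3′ libraries needs no division by gene length. Means ± SD are taken over libraries and not over mice. No test between conditions was run, since each condition had 1 library per label and the 2 labels are not labelled as different mice, and all 95% intervals given here cover counting error only. In build GRCm38, Dll1, Dll4, Notch1, Gfi1, Neurog3 and Sox4 each overlap an annotated gene on the opposite strand, and the strand setting of the counting was not given in the sources used here.

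**Figure D1:**
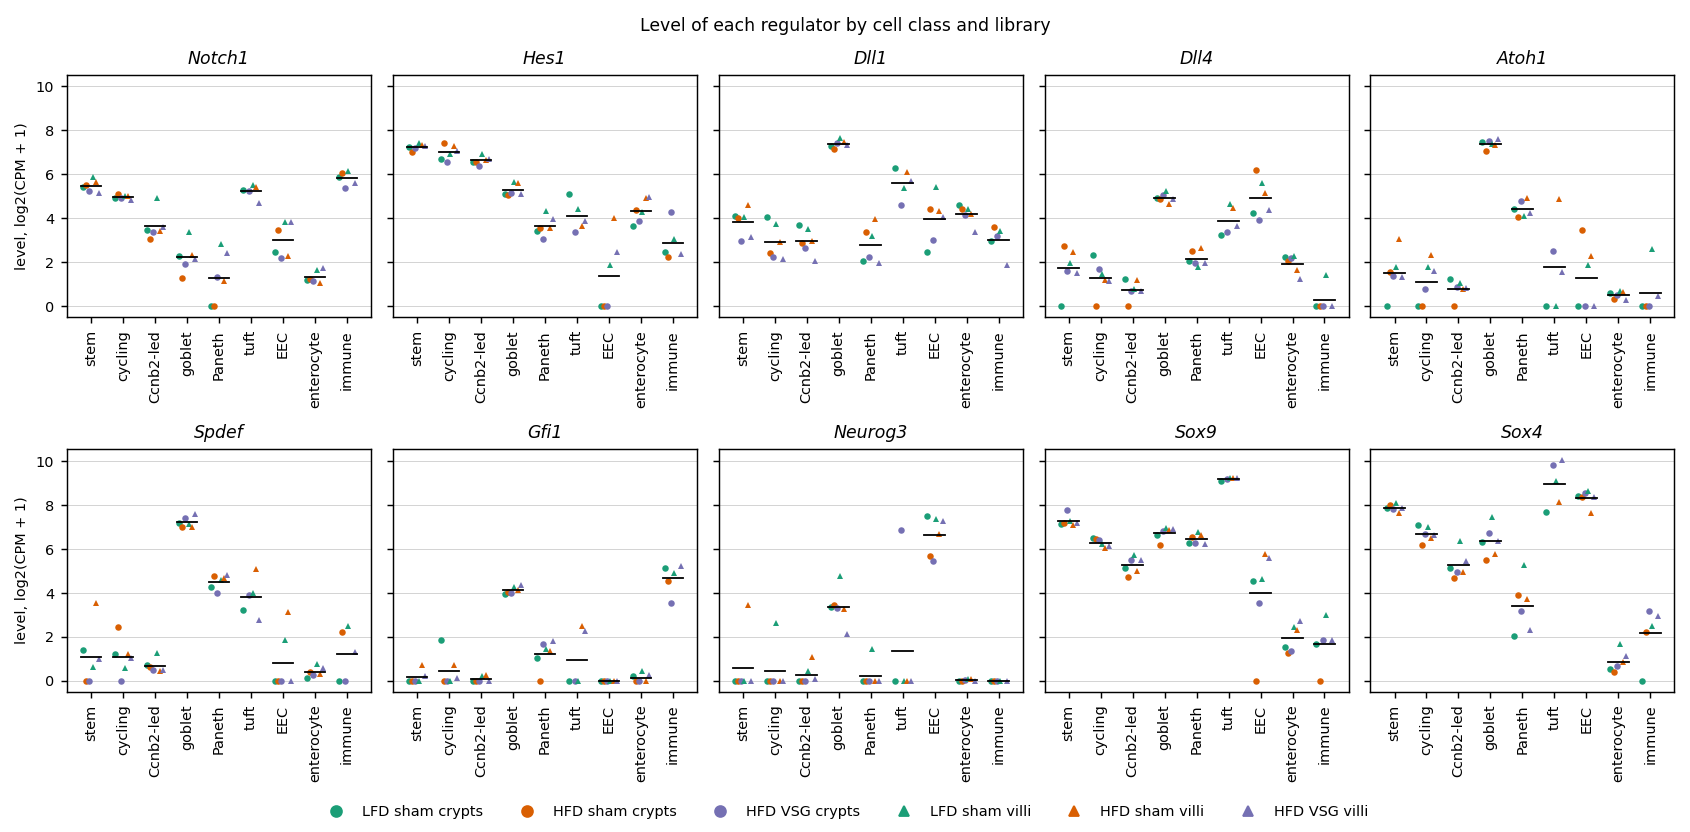
Level of the 10 genes, as log2(CPM + 1), in 9 cell classes, with a point for each library with at least 20 cells of the class (colours are conditions, circles crypts and triangles villi) and a bar at their mean. Atoh1, Spdef and Dll1 were highest in goblet-like cells, Hes1 in stem-like cells, Sox9 in tuft-like cells and Neurog3 in EEC-like cells by these means.

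The ligand Dll1 was at 155, 143, 171, 198, 176 and 160 CPM in the goblet-like cells of LFD sham, HFD sham and HFD VSG crypts and then of the same conditions in villi, a mean of 167.1 ± 19.0 (SD, n = 6 libraries). Goblet-like cells therefore held more Dll1 than any other class in every library, 12.0 to 55.2 times the level of Paneth-like cells and 7.45 to 25.3 times that of stem-like cells. Tuft-like cells followed at 51.8 ± 21.0 CPM (n = 5). Enterocyte-like cells held 18.0 ± 4.8 CPM but, as the largest class, 31.6% of all Dll1 UMIs, against 42.7% in goblet-like cells. Free RNA, which leaks from other cells into a droplet, could account for 2.78% to 23.2% of these enterocyte-like UMIs at the fractions given in the study's methods. Dll4, the other ligand, was at 29.8 ± 4.2 CPM in goblet-like and 34.3 ± 22.0 CPM in EEC-like cells (n = 6), and these 2 classes did not differ beyond their spread. In Paneth-like cells, the secretory neighbours of stem cells, Dll1 was at 6.98 and Dll4 at 3.6 CPM on average. The 12 Paneth markers took 653000 to 714700 CPM of the UMIs of Paneth-like cells, which lowers the CPM of every other gene there, whereas the 9 goblet markers took 92700 to 161700 CPM of those of goblet-like cells.

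Notch1, the receptor, was at 42.03, 44.1 and 37.5 CPM in stem-like cells of the crypt-labelled and 57.7, 48.6 and 34.8 CPM in those of the villus-labelled libraries, in the order LFD sham, HFD sham and HFD VSG. This mean of 44.1 ± 8.3 CPM was above the 30.4 ± 1.9 CPM of cycling progenitor-like cells and the 12.97 CPM of the Ccnb2-led cluster. Stem-like cells held 6.18 to 13.3 times the Notch1 level of goblet-like cells, in 6 of 6 libraries. The goblet-like sum of HFD sham crypts, at 1.41 CPM, was under 3 UMIs and was set to 3 for its ratio. Immune-like cells, led by Rgs1, Xcl1, Gzma and Cd3g, had 56.6 ± 12.2 CPM (n = 5) and were the highest class for Notch1 in each of these 5 libraries. Tuft-like cells, at 37.5 ± 7.5 CPM (n = 5), were within the spread of stem-like cells.

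Hes1, the repressor that Notch switches on, was highest in the same epithelial cells. It was at 149, 128, 147, 171, 160 and 154 CPM in stem-like cells of the 6 libraries in the order used for Dll1, a mean of 151.6 ± 14.3 CPM. Cycling progenitor-like cells had 129.7 ± 29.9 CPM, the Ccnb2-led cluster 99.3 ± 13.5 CPM, goblet-like cells 38.7 ± 7.8 CPM and enterocyte-like cells 20.5 CPM. Stem-like cells were above cycling progenitor-like cells in 5 of 6 libraries, by less than the spread between libraries, and above the Ccnb2-led cluster in 6 of 6. Stem-like cells held 3.31 to 4.55 times the level of goblet-like cells and 9.05 to 19.8 times that of Paneth-like cells. Only 7 Hes1 UMIs were found in the 192 EEC-like cells. Among secretory classes the goblet-like mean of 38.7 CPM stood above the 12.1 CPM of Paneth-like and the 3.75 CPM of EEC-like cells. The Paneth-like Hes1 level is lowered by the large share of Paneth markers given for Dll1, so its distance from other classes is not read.

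Atoh1, the secretory fate factor, was at 176, 134 and 182 CPM in goblet-like cells of LFD sham, HFD sham and HFD VSG crypts and at 167, 160 and 196 CPM in those of the villi libraries. Its goblet-like mean of 169.1 ± 21.2 CPM was 5.41 to 10.8 times the Paneth-like level, which averaged 21.1 ± 5.8 CPM, and goblet-like cells held 85.7% of all Atoh1 UMIs. Only 3 Atoh1 UMIs were found in EEC-like cells, the third secretory class. Spdef, a driver of goblet and Paneth maturation, had nearly the same profile, with 150.3 ± 26.0 CPM in goblet-like and 22.5 ± 4.9 CPM in Paneth-like cells and 84.3% of its UMIs in goblet-like cells. The Paneth-like levels of both genes are lowered by the share of Paneth markers given for Dll1. Gfi1, a zinc finger repressor that holds back the enteroendocrine programme, was at 16.7 ± 2.0 CPM in goblet-like cells, had 0 UMIs in EEC-like cells, where 3 UMIs would have made 6.70 to 30.7 CPM by library, and reached 26.4 ± 10.3 CPM in immune-like cells (n = 5). The goblet-like class joins a deep and a shallow cluster of 1093 and 259 cells.

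Shares of cells with a UMI depend on depth. In goblet-like cells 43.8% to 90.8% had an Atoh1 UMI, and in cells thinned to 1500 UMIs this became 8.33% to 24.7%, against 0 to 0.151% of thinned enterocyte-like cells, where the gene serves as a measure of free RNA (0.368% to 0.851% unthinned). For Neurog3 the thinned share was 0 to 13.2% in EEC-like cells and 0.340% to 2.30% in goblet-like cells. It was 0 in enterocyte-like cells in all 6 libraries, where 3 cells with a UMI would have made 0.135% to 0.356% by library. Unthinned, 3 enterocyte-like cells had a Neurog3 UMI.

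Sox9, a transcription factor of stem, Paneth and tuft cells, was at 537 and 574 CPM in tuft-like cells of LFD sham and HFD VSG crypts and at 591, 602 and 598 CPM in those of the LFD sham, HFD sham and HFD VSG villi libraries. This mean of 580.2 ± 26.3 CPM was 2.66 to 4.38 times the stem-like level in 5 of 5 libraries, and the 5 libraries lay close to each other. Stem-like cells had 156.3 ± 29.8 CPM, goblet-like cells 107.4, Paneth-like cells 86.8 and cycling progenitor-like cells 77.8 CPM. The Paneth-like value is lowered by the share of Paneth markers given for Dll1, so its place in this order is not read. Sox4 had a tuft-like mean of a similar size with a far wider spread, 596.5 ± 372.5 CPM (n = 5), followed by 327.0 ± 70.5 CPM in EEC-like and 235.6 ± 24.3 CPM in stem-like cells. In tuft-like, EEC-like and goblet-like cells Sox4 was concentrated in few cells, and the order of its first 2 classes is within their spread.

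Across the 64 combinations of class and library, and among 10220 genes compared, the genes with the profiles most like Atoh1 were Rep15 (r = 0.976), Ccl9 (0.972) and Creb3l4 (0.970), and for Spdef they were Creb3l4 (0.973), Rep15 (0.969) and Atoh1 itself (0.965). Rep15 belongs to the goblet markers used to name the class. Notch1 was most like Dtx4 (r = 0.927), a ubiquitin ligase of the Notch pathway, and Neurog3 most like Nefm (0.933) and Nkx2-2 (0.923), the latter a factor of endocrine cells. Hes1 was most like Map3k21 (0.940), Dll1 like Rasd2 (0.869), Dll4 like Fgfr2 (0.914), Gfi1 like AW112010 (0.930), Sox9 like Nrtn (0.875) and Sox4 like Cnn3 (0.942). These correlations are descriptions over profiles that share libraries and depth.

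A few Atoh1 UMIs were found in progenitors. Thinned to 1500 UMIs, 0 to 2.22% of stem-like cells had one by library. Free RNA could give up to 26.7% of the Atoh1 UMIs of a library in stem-like cells, up to 48.6% in cycling progenitor-like cells and more than were counted, 256.8%, in the Ccnb2-led cluster. Among stem-like cells 31 had an Atoh1 UMI, in 5 of 6 libraries, and these cells held 43 Dll1 UMIs where 7.86 were expected from the other stem-like cells of the same libraries at equal depth, a ratio of 5.47 (95% interval 3.96 to 7.37). The HFD VSG villi library held 14 of these cells and 32 of the Dll1 UMIs, and without it the ratio was 2.15 (1.07 to 3.85). The ratio for Dll4 was 6.78 (3.38 to 12.1), and 4.04 without HFD VSG villi and 10.4 without HFD sham villi. That for Spdef was 14.3 (7.63 to 24.5), with 11 of 13 UMIs in 5 cells of HFD sham villi, and 3.98 (0.481 to 14.4) without that library. For Sox4 it was 1.64 (1.46 to 1.84), but 0.729 (0.547 to 0.951) without HFD VSG villi, so no direction is read. For Hes1 it was 0.999 (0.832 to 1.19), so that stem-like cells with Atoh1 held as much Hes1 as those without, within counting error. Both genes were found in 25 of the 31 cells, but a Hes1 UMI was found in 690 of all 942 stem-like cells. In HFD VSG villi it was found in 81.9% of them, so the 25 cells are not read as joint expression.

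In the 21 cycling progenitor-like cells with Atoh1 the ratios were 13.9 (10.1 to 18.7) for Dll1, 12.6 (6.02 to 23.1) for Dll4, 3.25 (2.87 to 3.66) for Sox4 and 1.02 (0.840 to 1.22) for Hes1. In the 23 cells of the Ccnb2-led cluster they were 13.9 (10.2 to 18.3) for Dll1, 10.7 (3.48 to 25.0) for Dll4, 3.40 (2.79 to 4.11) for Sox4 and 0.763 (0.575 to 0.993) for Hes1. With each library left out in turn, Dll1 stayed between 10.1 and 16.4 in the former and between 10.8 and 16.7 in the latter, and Sox4 between 2.79 and 3.77 in both. Dll4 in the Ccnb2-led cells was at 5.07 without HFD sham villi, from 2 UMIs. Goblet marker UMIs in the cells with Atoh1 were 5.91, 4.72 and 19.4 times those expected in the stem-like, cycling progenitor-like and Ccnb2-led groups. They were concentrated in few cells, since 5 stem-like cells of HFD sham villi held 1917 of 2479 (a ratio of 1.92 without that library) and 3 Ccnb2-led cells of HFD sham villi held 2717 of 5324 (11.6 without it). Spdef, at 32.5 (14.0 to 64.0) in the Ccnb2-led cells, was at 1.23 (0.0310 to 6.82) in cycling progenitor-like cells, from 1 UMI. The Dll1 UMIs lay in 12 stem-like, 9 cycling progenitor-like and 9 Ccnb2-led cells with Atoh1. UMIs of 1 cell are not independent, so the intervals of these ratios understate the error. The part of free RNA and of remaining doublets in these ratios was not tested.

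**Figure D2:**
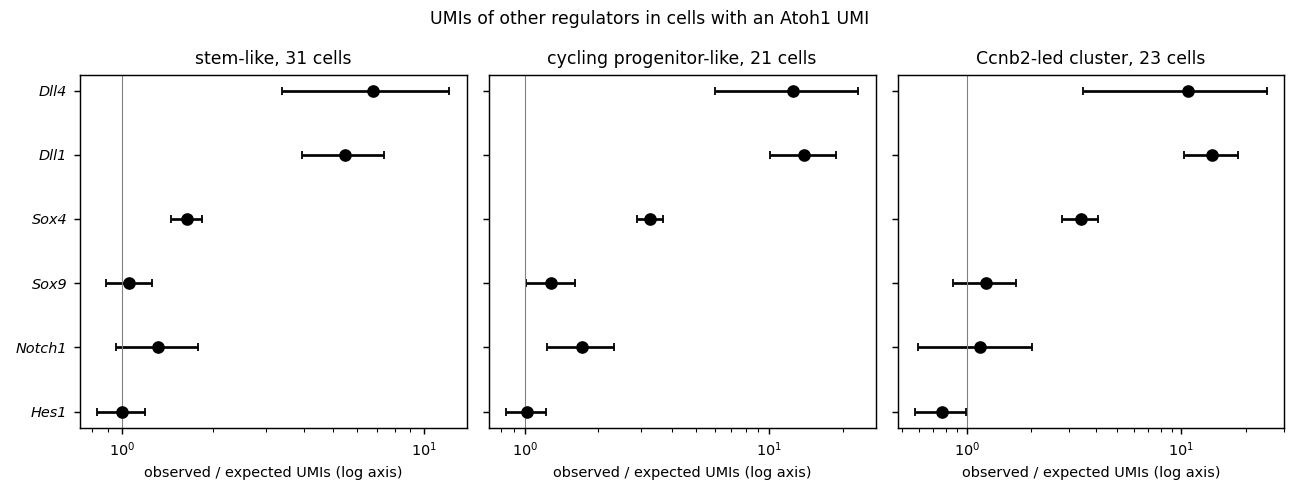
Ratio of the UMIs of 6 of the genes found in cells with an Atoh1 UMI to those expected from the other cells of the same class and library (log axis, bars are 95% Poisson intervals), in stem-like, cycling progenitor-like and Ccnb2-led cells. Dll1 and Dll4 lie between 5.47 and 13.9, Sox4 between 1.64 and 3.40, and Hes1 between 0.763 and 1.02.

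A small set of goblet-like cells carried genes of dividing cells. At a finer clustering resolution of 0.8, 60 goblet-like cells separated by genes of the cell cycle, 2, 5 and 4 of them in the LFD sham, HFD sham and HFD VSG crypts libraries and 21, 17 and 11 in the villi libraries, 1.47% to 6.02% of the goblet-like cells of a library. Their cycling markers summed to 5471 CPM, near the 5822 CPM of cycling progenitor-like cells and far above the 283 CPM of other goblet-like cells. Their Atoh1 level of 164.7 CPM (95% interval 144.9 to 186.3) was close to the 178.1 CPM of other goblet-like cells (172.1 to 184.3) and unlike the 2.07 CPM of cycling progenitor-like cells. Dll1 was at 166, 173 and 6.12 CPM in these 3 sets and Spdef at 131, 162 and 0.985 CPM, while goblet markers summed to 38500, 121400 and 560 CPM. Summed over libraries, Notch1 was at 13.8 CPM (8.53 to 21.1) in them against 4.24 CPM (3.36 to 5.29) in other goblet-like cells and was the higher in 4 of 6 libraries. Hes1 was at 53.8 (42.8 to 66.8) against 39.3 CPM (36.5 to 42.2), but higher in only 3 of 6. For Sox4 the libraries went both ways, with 303.2 against 68.3 CPM in HFD VSG villi and 85.6 against 184.9 CPM in LFD sham villi. Neurog3 had no UMI in this set of goblet-like cells (upper bound 2.42 CPM). Their median depth was 23390 UMIs against 12630 in other goblet-like cells, and what part cells captured together had in this set was not tested.

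Neurog3, which starts the enteroendocrine programme for a short time, was in few cells at high counts. The 34 cells with at least 5 Neurog3 UMIs held 461 of the 532 UMIs (86.7%), up to 33 in a cell. EEC-like cells held 40.2% of the UMIs and goblet-like cells 42.9%. The EEC-like level was 180, 51.2 and 43.2 CPM in LFD sham, HFD sham and HFD VSG crypts and 162, 100.3 and 154 CPM in villi, from 40, 5, 12, 62, 26 and 69 UMIs. Their mean was 115.2 ± 59.0 CPM. In crypts the interval of LFD sham (128.4 to 244.7 CPM) lay above those of HFD sham (16.6 to 119.5) and HFD VSG (22.3 to 75.5), while in villi the 3 intervals overlapped. Only 1 to 11 cells stand behind each level, and UMIs of 1 cell are not independent.

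Goblet-like cells with Neurog3 (23 cells) had low levels of the goblet markers. In the 14 of them with at least 5 Neurog3 UMIs, spread over all 6 libraries, Atoh1, Hes1 and Gfi1 had no UMI where other goblet-like cells had 178.9, 40.5 and 18.0 CPM, and 3 UMIs of Spdef made 20.1 CPM, so the difference for Gfi1 was not detectable at this depth. The 9 goblet markers summed to 8208 CPM against 116500 CPM in the 1329 goblet-like cells without Neurog3. Muc2, the gel-forming mucin, was at 53.5 against 8724 CPM. Sox4 was at 3509 against 72.0 CPM. Dll1 was at 234 CPM, from 35 UMIs in these 14 cells, against 171 CPM, and this difference is not read. Insm1 and Neurod1, factors of early endocrine cells, were at 769 and 508 CPM against 1.71 and 0.957 CPM, whereas the mature endocrine gene Chga had no UMI. By these markers the 14 cells went against the name of their class. In the 31 EEC-like cells with Neurog3, Atoh1, Hes1 and Spdef also had no UMI, against 2.19, 5.12 and 2.19 CPM in the other EEC-like cells, a difference that was not detectable at this depth. Sox4 was at 494 CPM against 295 CPM.

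**Figure D3:**
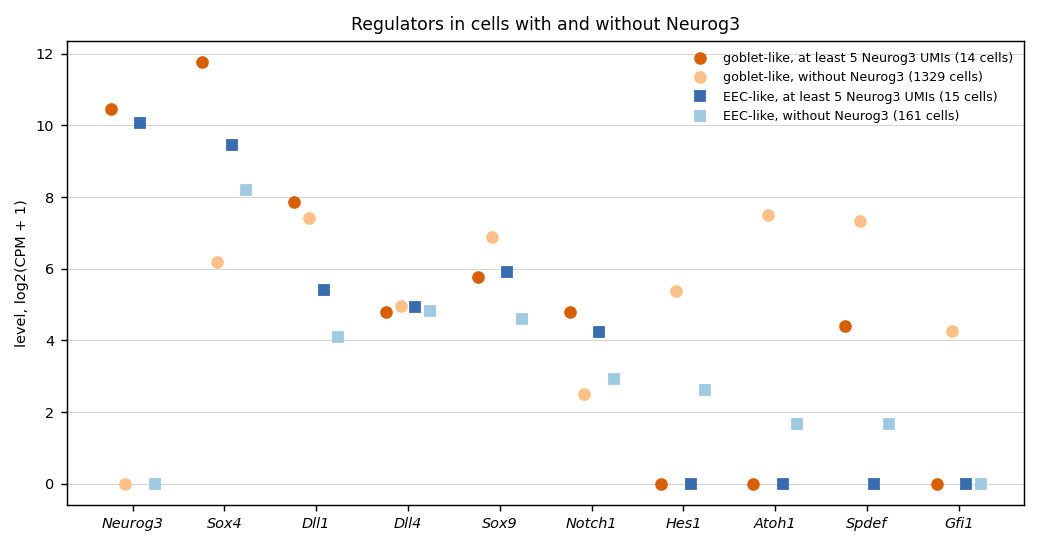
Level of the 10 genes, as log2(CPM + 1), in goblet-like cells (circles) and EEC-like cells (squares) with at least 5 Neurog3 UMIs (dark, 14 and 15 cells) and with none (light, 1329 and 161 cells). Goblet-like cells with at least 5 Neurog3 UMIs had 3509 CPM of Sox4 and no Atoh1 UMI, against 72.0 and 178.9 CPM in goblet-like cells without Neurog3.

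Conditions were compared as log2 ratios of the CPM within a class, separately for the 2 labels, for each pair of a gene and a class that averaged 50 or more UMIs over the 3 libraries and had 20 or more cells in each. Sums under 3 UMIs were set to 3. A ratio beyond 0.5 in size was counted, the threshold of the study. The HFD sham library stands in both the diet and the surgery comparison, so an unusual HFD sham value gives opposite signs in the 2. The ratios are of 1 pooled library to another, and the spread between mice cannot be told apart from the effect of diet or surgery.

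In the crypt-labelled libraries 19 pairs of 7 genes met these limits. For HFD sham against LFD sham, 2 of 19 lay beyond 0.5 upward, where 6.85% of the 25992 pairs of all genes did, and 3 of 19 downward against 7.41%, with a median of -0.19 against -0.0089 over all pairs. For HFD VSG against HFD sham, 5 of 19 lay beyond it upward against 6.96% of all pairs, and 2 of 19 downward against 4.93%, with a median of 0.20 against 0.073. In the villus-labelled libraries 35 pairs of all 10 genes met the limits. For HFD sham against LFD sham 3 of 35 lay upward against 6.96% of the 48368 pairs of all genes, and 12 of 35 downward against 6.74%, with a median of -0.21 against 0.011. For HFD VSG against HFD sham 7 of 35 lay upward against 9.64% and 7 of 35 downward against 29.7%, with a median of 0.082 against -0.20 over all pairs.

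That general shift of -0.20 marks the HFD VSG villi library, which was also the deepest, where the median cell had 30232 UMIs and that of HFD sham villi 12875. Its class medians over all genes lay between -0.39 in Paneth-like and 0.046 in EEC-like cells, with -0.26 in goblet-like and -0.27 in stem-like cells, and the surgery ratios in villi are printed without subtracting them. With median-of-ratios scaling in place of CPM, 13 of the 35 pairs lay upward and 5 downward. No share of all pairs is given under that scaling, so these counts are not read further. The crypt-labelled and villus-labelled libraries of a condition are not labelled as different mice, so values of the 2 labels are no independent repeats.

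Sox4 made up 5 of the 12 downward villus-labelled pairs for diet. In goblet-like cells it was at 176 CPM in LFD sham, 54.4 CPM in HFD sham and 82.2 CPM in HFD VSG villi, and at 78.3, 43.8 and 105 CPM in the crypts libraries. In both labels the HFD sham library was the low one, with log2 ratios to LFD sham of -1.69 (95% interval -1.92 to -1.47) in villi and -0.84 (-1.46 to -0.26) in crypts. The crypts value rested on 1 LFD sham cell with 68 of 119 Sox4 UMIs, and it was 0.016 without the cell with the most UMIs in each library. The ratio of HFD VSG to HFD sham was 0.60 (0.36 to 0.83) in villi and 1.26 (0.71 to 1.86) in crypts.

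In the villus-labelled libraries HFD sham was below LFD sham in all 7 classes where Sox4 could be read, at -1.60 in Paneth-like, -1.43 in Ccnb2-led, -1.04 in EEC-like, -0.98 in tuft-like, -0.49 in cycling progenitor-like and -0.43 in stem-like cells besides the goblet-like value. HFD VSG was above HFD sham in 6 of these 7 classes, by 1.92 in tuft-like, 0.73 in EEC-like, 0.53 in Ccnb2-led, 0.20 in stem-like and 0.15 in cycling progenitor-like cells. The exception was the Paneth-like class at -1.64, from 40 UMIs in HFD sham and 11 in HFD VSG. The median Paneth-like cell of villi had 46750, 6712 and 4160 UMIs in LFD sham, HFD sham and HFD VSG. At resolution 0.8 a deep cluster of 397 cells kept the Paneth-like name. A shallow cluster of 217 cells with all 12 Paneth markers stayed unnamed. The part of this depth in the Paneth-like ratios was not tested. In these Paneth-like cells of villi the stem markers summed to 759.1, 363.1 and 145.9 CPM in LFD sham, HFD sham and HFD VSG and so fell along with Sox4. In the same order they were at 1257, 551.3 and 432.7 CPM in Ccnb2-led and 537.2, 208.2 and 317.3 CPM in EEC-like cells. Tuft-like cells had 1339, 695.1 and 811.5 CPM. Of the 7 classes, only cycling progenitor-like cells had more in HFD sham than in LFD sham, 1836 against 1484 CPM. The part of these markers in the Sox4 ratios was not tested. After subtraction of free RNA the diet ratios in villi were -0.28 to -1.89, and for surgery cycling progenitor-like cells turned to -0.01. In the crypts libraries Sox4 was lower in HFD sham than in LFD sham in 4 of 5 classes and higher in HFD VSG than in HFD sham in 4 of 5, and after subtraction of free RNA these were 3 of 5 and 2 of 5.

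Tuft-like Sox4 levels in villi were 546, 278 and 1051 CPM. In the same cells the cycling progenitor markers were at 759.4, 277.6 and 741.5 CPM and the goblet markers at 868.2, 6062 and 609.1 CPM. Their part in the tuft-like ratios was not tested. Few cells carried much of the Sox4 sums. Without the 5 cells with the most Sox4 of each class and library, the goblet-like ratio for diet in villi was -1.70 (-1.99 to -1.41), and the tuft-like ratio for surgery was 1.32 (0.89 to 1.76). The goblet-like ratio for surgery in villi became 0.30 (-0.01 to 0.61). The 23 goblet-like cells with any Neurog3 UMI held 12.6% to 57.1% of the Sox4 UMIs of the goblet-like class by library. Without them the goblet-like diet and surgery ratios were -1.61 and 0.94 in villi and -0.23 and 1.24 in crypts.

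**Figure D4:**
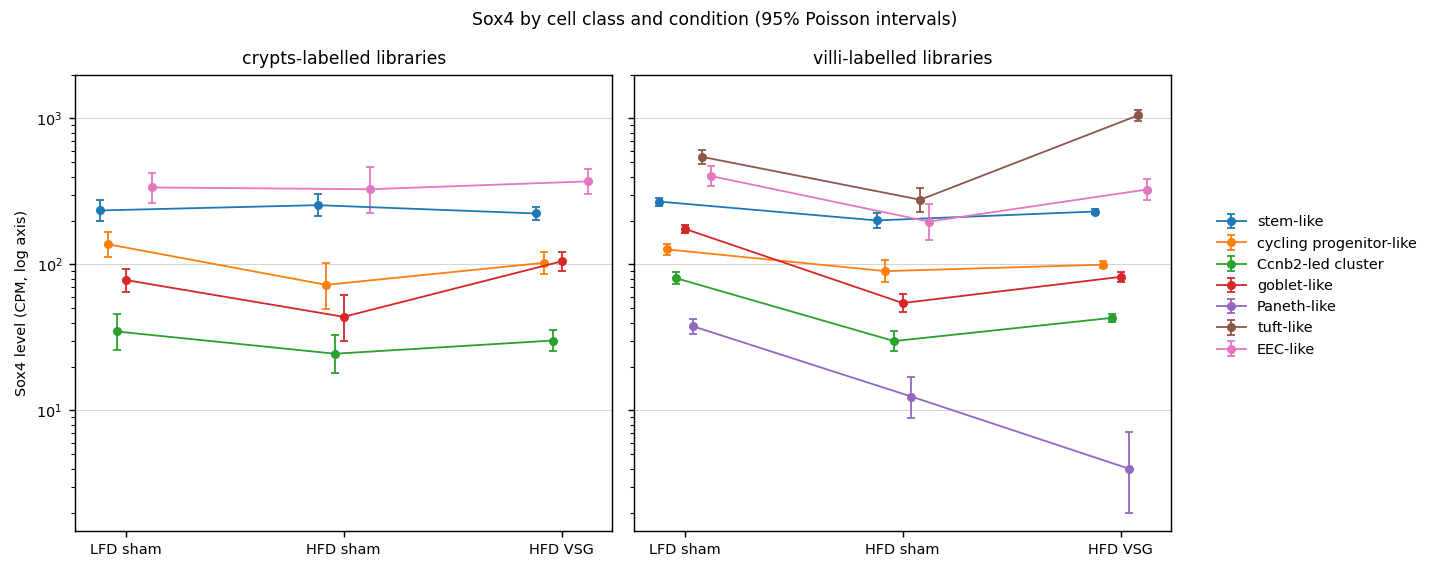
Sox4 level (CPM, log axis) of each cell class (coloured lines, classes with a mean under 50 UMIs left out) in the crypt-labelled and villus-labelled libraries of LFD sham, HFD sham and HFD VSG, with 95% Poisson intervals. In villi the HFD sham library lies below LFD sham in all 7 classes compared, and HFD VSG lies above HFD sham in all of them but the Paneth-like class.

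Sox9 lay beyond 0.5 in 3 crypts pairs for surgery and in the Ccnb2-led cluster of villi, at -0.75 for diet and 0.52 for surgery. In the crypts libraries it was higher in HFD VSG than in HFD sham by 0.59 (0.23 to 0.96) in stem-like, 0.82 (0.36 to 1.30) in Ccnb2-led and 0.66 (0.21 to 1.13) in goblet-like cells, with stem-like levels of 141, 144 and 216 CPM in LFD sham, HFD sham and HFD VSG. After subtraction of free RNA these ratios were 0.26, 0.52 and 0.33. In the villi libraries the stem-like levels were 155, 137 and 145 CPM and the surgery ratio was 0.082 (-0.13 to 0.30). Tuft-like Sox9 was at 591, 602 and 598 CPM in villi, with ratios of 0.03 for diet and -0.01 for surgery. In the Ccnb2-led cluster the stem markers were at 1257, 551.3 and 432.7 CPM in villi and 431.8, 305.9 and 483.5 CPM in crypts. They moved with its Sox9 for diet in villi and for surgery in crypts, but not for surgery in villi. Their part in the Sox9 ratios was not tested.

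Hes1 was higher in HFD sham than in LFD sham in enterocyte-like cells of both labels. This class joins clusters of 3514, 3284, 790, 590 and 239 cells, and the part of their mix in these ratios was not tested. The Ms4a18-led cluster was not among the classes compared between conditions. Enterocyte-like cells had 11.7, 19.6 and 13.8 CPM in LFD sham, HFD sham and HFD VSG crypts and 18.4, 29.3 and 30.4 CPM in villi. HFD sham was above LFD sham in both labels, with log2 ratios of 0.74 (0.52 to 0.97) and 0.68 (0.46 to 0.90), which were 0.79 and 0.70 after subtraction of free RNA. HFD VSG was below HFD sham in crypts at -0.51 (-0.70 to -0.31) and within counting error of it in villi at 0.06 (-0.10 to 0.21). Free RNA could give 25.6% and 17.4% of these UMIs in the HFD sham libraries and 4.11% to 8.07% in the others. In stem-like cells, where Hes1 was highest, the ratios were -0.21 and 0.20 in crypts and -0.09 and -0.06 in villi for diet and surgery, all with intervals that include 0. Cycling progenitor-like cells had 0.73 (0.26 to 1.20) and -0.86 (-1.28 to -0.43) in crypts and 0.37 (0.14 to 0.60) and -0.24 (-0.44 to -0.04) in villi. In villi HFD sham was lower than LFD sham in 4 of 6 classes. The ratio was -0.80 (-1.38 to -0.25) in Paneth-like cells, from 130 and 35 UMIs, and -0.29 (-0.46 to -0.13) in the Ccnb2-led cluster. In these Paneth-like cells the stem markers fell and the depth differed as given for Sox4. After subtraction of free RNA HFD sham was the higher in all 4 crypts classes read, by 0.09 to 1.02, and the stem-like and goblet-like values of villi turned to 0.04, while the Paneth-like value was -1.47. Goblet-like cells of villi had 49.0, 48.4 and 33.8 CPM, a surgery ratio of -0.52 (-0.80 to -0.23) against a class median of -0.26.

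Of the ligands and the receptor, Dll1 was lower in HFD VSG than in HFD sham villi in all 4 classes read, by -1.56 (-2.13 to -0.97) in stem-like, -1.14 (-1.74 to -0.51) in Ccnb2-led, -0.90 (-1.13 to -0.67) in enterocyte-like and -0.14 (-0.28 to 0.00) in goblet-like cells. The medians of these classes over all genes were -0.27, -0.26, -0.02 and -0.26, so the goblet-like Dll1 ratio lay above that of its class. The stem-like Dll1 levels were 15.8, 23.6 and 8.02 CPM in LFD sham, HFD sham and HFD VSG villi, and 5 cells held 58.3% of the 36 UMIs of HFD sham. Goblet markers in the same stem-like cells moved alike, at 583.2, 2290 and 392.8 CPM, as did Atoh1 at 2.42, 7.22 and 1.49 CPM and Spdef at 0.537, 10.5 and 0.992 CPM, and in the Ccnb2-led cells the goblet markers were at 654.4, 1037 and 311.2 CPM. Their part in the Dll1 ratios was not tested. In crypts the stem-like sums were 10, 8 and 13 UMIs, below the limit of 50. The surgery ratios of Dll1 there were 0.26 in goblet-like and -0.30 in enterocyte-like cells. Notch1 was at 29.9, 9.77 and 11.3 CPM in the Ccnb2-led cells of the same villi libraries, a diet ratio of -1.61 (-2.09 to -1.16). In these cells the stem markers were at 1257, 551.3 and 432.7 CPM and the cycling progenitor markers at 1837, 875.6 and 527.5 CPM. Their part in the Notch1 ratio was not tested. In stem-like cells the Notch1 diet ratio was -0.25 (-0.65 to 0.14) and in cycling progenitor-like cells 0.02 (-0.49 to 0.51). Dll4 in goblet-like cells was at 36.4, 23.9 and 28.6 CPM in villi, a diet ratio of -0.60 (-0.99 to -0.23).

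The secretory factors Atoh1 and Spdef were higher in HFD VSG than in HFD sham goblet-like cells of both labels. Spdef was at 145, 127 and 167 CPM in LFD sham, HFD sham and HFD VSG crypts and at 141, 127 and 194 CPM in villi, with surgery ratios of 0.39 (0.05 to 0.75) and 0.61 (0.46 to 0.76). For Atoh1 these were 0.44 (0.10 to 0.78) and 0.29 (0.16 to 0.44), and none but the Spdef value in villi passed 0.5. The goblet-like median over all genes was -0.26 in villi. After subtraction of free RNA the ratios were 0.04 and 0.42 for Spdef and 0.08 and 0.10 for Atoh1. In Paneth-like cells of villi Atoh1 was at 16.4, 29.6 and 18.1 CPM. The ratios were 0.85 (0.44 to 1.25) for diet and -0.71 (-1.23 to -0.20) for surgery, and the class medians there were 0.23 and -0.39. The median depth of these cells differed between the libraries as given for Sox4, and its part was not tested. Gfi1 in goblet-like cells of villi was at 18.5, 16.6 and 19.6 CPM, with ratios within 0.5 and intervals that include 0. Neurog3 in goblet-like cells was at 26.1, 8.71 and 3.41 CPM in villi, from 10, 4 and 2 cells with a UMI.

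The other genes of the pathway, in lists of 41 Notch pathway genes, 26 secretory regulators and 18 crypt and absorptive regulators, were read against the shares of all pairs. For diet in crypts, 2 of 55 Notch pathway pairs, 3 of 33 pairs of secretory regulators and 5 of 67 of crypt and absorptive regulators lay upward against 6.85% of all pairs, and 2, 4 and 5 downward against 7.41%. For surgery in crypts 2, 5 and 5 lay upward against 6.96%, and 2, 3 and 7 downward against 4.93%. For diet in villi 8 of 114, 6 of 65 and 4 of 90 lay upward against 6.96%, and 7, 5 and 7 downward against 6.74%. For surgery in villi 5, 1 and 7 lay upward against 9.64%, and 46, 20 and 30 downward against 29.7%, with a median of -0.30 over the Notch pathway pairs against -0.20 over all pairs. The downward shares of secretory regulators and of crypt and absorptive regulators there lay near that of all pairs.

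Among the genes named by these lists, Id1 and Id3, inhibitors of basic helix-loop-helix factors, were higher in stem-like cells of HFD VSG than of HFD sham villi, by 0.87 (0.61 to 1.15) and 0.84 (0.53 to 1.16), and by 0.87 and 0.91 after subtraction of free RNA. For Id1 in crypts the ratio was 0.40 (-0.12 to 0.96). Creb3l4, an endoplasmic reticulum factor of secretory cells, was at 67.8 CPM in HFD sham and 127 CPM in HFD VSG goblet-like cells of crypts, a log2 ratio of 0.91 (0.45 to 1.39) that was 0.55 after subtraction. Cbfa2t3, a corepressor, was at 137 and 212 CPM in the same cells, a ratio of 0.63 (0.31 to 0.97) that fell to 0.28. Hes6, which opposes Hes1, was at 75.0 and 109 CPM in goblet-like cells of LFD sham and HFD sham crypts, a ratio of 0.54 (0.10 to 0.97) that became 0.80. Other listed genes were lower in HFD VSG than in HFD sham villi. Cbfa2t2 was at -1.335 (-1.859 to -0.784) in stem-like cells, and at -1.488 after subtraction. In Paneth-like cells Tcf7l2, Itch and Mib1 were at -1.532, -1.375 and -1.36, and at -1.575, -1.365 and -1.464 after subtraction. The Paneth-like class median there was -0.39.

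For a pair of listed genes that were more abundant in enterocyte-like cells, the ratios turned or shrank with the subtraction. Klf4, a goblet cell factor at 48.6 CPM in Paneth-like but 285.3 CPM in enterocyte-like cells, had Paneth-like ratios of -1.09 in crypts and -0.98 in villi, which became 2.05 and -0.36 after subtraction. Maf, at 76.4 CPM in goblet-like but 719.4 CPM in enterocyte-like cells, had goblet-like ratios of -0.95 and -2.64, which turned to 1.44 and 2.18. No direction is read for either gene.

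By level across classes, 13 of the 31 Notch pathway genes that reached 10 CPM in a class were highest in immune-like cells, where 17.9% of the 11520 genes at that level were, among them Dtx1 at 182.6 CPM and Rbpj, the DNA-binding partner of Notch, at 98.2 CPM. Of the 26 secretory regulators 14 were highest in EEC-like cells, against 24.1% of all genes, led by Neurod1 at 1376 CPM and Isl1 at 648.1 CPM. Goblet-like and tuft-like cells were highest for 5 each, against 5.19% and 12.0% of all genes. Notch2, the other receptor used in the crypt, was at 13.4 CPM in stem-like and 12.99 CPM in immune-like cells, and the Notch targets Hes5, Hey1 and Hey2 gave 26, 13 and 3 UMIs in all. Of the same list, Nrarp gave 3407 UMIs, with 28.2 CPM in cycling progenitor-like and 22.7 CPM in stem-like cells. Heyl gave 241 UMIs and was highest in immune-like cells.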

How the data were processed

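Single-cell 3′ RNA libraries of jejunal epithelium were aligned by the authors to mm10 with Cell Ranger 6.0.0, per the labels and the study's methods, and the authors deposited matrices of UMI counts, unscaled, for all barcodes and for barcodes called as cells. Here, called barcodes with at least 750 genes and at most 20% mitochondrial UMIs were kept, and barcodes resembling simulated doublets (2 made per barcode) were taken out, 0.8% for each 1000 called. Libraries were integrated in R 4.3.3 (Seurat 5.3.0, sctransform 0.4.2, 2000 genes, 30 components, resolution 0.4), leaving out the 10 genes and 85 listed genes, and named by markers. UMIs were summed by class and library (Python 3.11.15, numpy 2.4.6, scipy 1.17.1, pandas 2.3.3) and given as CPM, with exact Poisson and binomial 95% intervals. No test was run, since each condition had 1 library per label. Expected UMIs in cells with Atoh1 came from the remaining cells of the same class and library at equal depth. The genes, lists and markers were chosen with earlier results of these data known. All 10 genes were named, and of each list the 2 highest and 2 lowest ratios in stem-like, goblet-like and Paneth-like cells were eligible. Ratios and intervals were tested on simulated data that held counting error only, so the spread between cells or mice was not covered. Free RNA was estimated from droplets with fewer than 100 UMIs.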

Additional observations from a re-analysis of the deposited data

How the results depend on the processing

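No paired analysis was possible because no result here comes from a test, and leaving out a library would remove the ratio between conditions itself. Under the alternatives 675 class levels of the 10 genes moved by less than their error and 35 by more, and of their log2 ratios 968 and 55. Of the ratios of the 10 genes beyond 0.5, 1 changed sign: the goblet-like Sox4 ratio of HFD sham to LFD sham in crypts was 0.0155 without the cell with the most UMIs. The listed genes Klf4 and Maf, with ratios that turned after subtraction of free RNA, are not in this count. Less stable were shares of cells with a UMI, of which 124 moved by more and 116 by less, and ratios between goblet-like or other cells with and without Atoh1, of which 32 moved and 35 did not, 22 of the former with doublets kept. The number of pairs read differed between settings. The 19 pairs of crypts and 35 of villi were 7 and 21 with at least 200 UMIs and 43 and 70 with at least 3. With at most 10% mitochondrial UMIs they were 12 and 33, and under the other settings 17 to 21 and 32 to 37. No share of all pairs is given under these settings, so the counts are not read as shifts of the 10 genes. Counts of pairs beyond 0.5 also depended on settings. Upward and downward for diet in crypts (2 and 3 pairs) they were 0 and 0 at a threshold of 1, 1 and 0 with at least 200 UMIs, 8 and 8 with at least 3 UMIs, 0 upward with at most 10% mitochondrial UMIs and 1 downward after subtraction of free RNA. For surgery in crypts (5 and 2 pairs) they were 1 and 0, 0 and 1, and 8 and 12 under the same first 3 settings, 2 and 4 after subtraction, and downward 0 with at most 10% mitochondrial UMIs and 1 each with doublets kept, at resolution 0.8, with the genes used in clustering, with totals without mitochondrial genes and without the top cell. For diet in villi (3 and 12 pairs) they were 0 and 6, 1 and 4, and 17 and 25, and upward 1 with at most 10% mitochondrial UMIs and 5 at resolution 0.8. For surgery in villi (7 and 7 pairs) they were 1 and 4 at a threshold of 1, 2 downward with at least 200 UMIs, 12 and 27 with at least 3, and upward 4 after subtraction, 4 with at most 10% mitochondrial UMIs and 13 with median-of-ratios scaling. In goblet-like cells 2 of 8 genes, Hes1 and Spdef, were higher in cells with Atoh1 in every library that could be read, and 0 of the 4 genes that could still be read after thinning to 1500 UMIs. The intervals lay above 0 in 1 of 6 libraries for Hes1 and in 3 of 6 for Spdef. Median depth by library was 10590 to 25540 UMIs in goblet-like cells with Atoh1 and 2981 to 9480 in those without. In the cells with Atoh1 Sox4 was lower in 6 of 6 and Neurog3 in 5 of 5 libraries. The cells without Atoh1 include all 14 goblet-like cells with at least 5 Neurog3 UMIs. In stem-like cells with Atoh1 the ratio of Sox4 UMIs to those expected ranged from 0.729 without the HFD VSG villi library to 1.82 without HFD sham villi. This leaving out of libraries and a fraction of free RNA of 0.1 in every library were alternatives chosen after seeing the data. Depth and mouse numbers limit all ratios between conditions, and the cause of these changes was not tested.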
